A study of Mus musculus with 6 samples.

Results

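The small nucleolar RNA host genes examined here are Gas5, Snhg1, Snhg3, Snhg5, Snhg6, Snhg8 and Snhg12, chosen by name from the count table, and all 7 were among its 24421 gene entries. The RNA came from monocytes sorted from the bone marrow of B6 mice. In 3 libraries the cells had received granulocyte-macrophage colony-stimulating factor (GM-CSF; 5 ng, in an unstated volume) over 3 h, and in the 3 control libraries they had not. The source label describes the control cells as fresh from isolation, whereas the protocol describes medium with or without GM-CSF, so time in culture may differ between the groups together with the cytokine, and the 2 cannot be told apart. Nothing in the labels says that the replicates came from separate mice or cultures, and p-values therefore measure the spread between these libraries, which may be technical.

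Small nucleolar RNAs (snoRNAs) guide the chemical modification of ribosomal and other RNAs. Box C/D snoRNAs direct ribose methylation and box H/ACA snoRNAs direct the conversion of uridine to pseudouridine, and a few of either class act in the cleavage of the ribosomal RNA precursor. Most mammalian snoRNAs are cut out of introns after splicing, and in the host genes studied here the spliced exons form a long noncoding RNA. Several such hosts begin with a terminal oligopyrimidine (TOP) sequence like that of ribosomal protein mRNAs, and their spliced RNAs can be removed by nonsense-mediated decay, as is known for Gas5. Gas5, growth arrest-specific transcript 5, was named for its accumulation in cells that stop dividing, and its RNA can bind the glucocorticoid receptor.

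GENCODE M21 placed 27 snoRNAs inside the 7 host genes on GRCm38, the assembly that mm10 denotes. By a search for their boxes 18 were of the box C/D class and 6 of the box H/ACA class. The box H/ACA class was given to longer sequences with A, any base and A near the 3′ end. The H box was not searched, and Snora44 in Snhg12 matched with ATA in place of ACA. The 3 others, all inside Snhg1, were not classified because TGATG did not lie within their first 20 bases. Gas5 held 9 and Snhg5 held 2 of the box C/D class, and Snhg1 held 5 of that class among its 8. Snhg6 held 1 box C/D snoRNA. Snhg3 held 2 box H/ACA snoRNAs and Snhg8 held 1, while Snhg12 held 3 box H/ACA snoRNAs and 1 box C/D snoRNA. One snoRNA per host gene is shown to let the classes be compared. Capitals mark the box C core (TGATG) and box D (CTGA) in the first 4 sequences and the ACA box near the 3′ end in the last 3. The sequences are those of GENCODE M21, written as DNA from 5′ to 3′ on the strand of the host gene.
Snord47 in Gas5, chr1:161038082-161038158, + strand: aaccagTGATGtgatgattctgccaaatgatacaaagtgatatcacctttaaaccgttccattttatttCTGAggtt
Gm25855 in Snhg1, chr19:8723993-8724064, + strand: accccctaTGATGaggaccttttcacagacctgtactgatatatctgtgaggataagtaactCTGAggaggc
Snord50a in Snhg5, chr9:88521529-88521600, - strand: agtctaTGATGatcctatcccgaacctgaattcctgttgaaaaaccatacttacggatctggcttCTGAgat
Snord87 in Snhg6, chr1:9942463-9942549, - strand: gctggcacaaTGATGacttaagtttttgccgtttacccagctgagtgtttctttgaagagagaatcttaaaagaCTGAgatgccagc
Snora73a in Snhg3, chr4:132352775-132352979, - strand: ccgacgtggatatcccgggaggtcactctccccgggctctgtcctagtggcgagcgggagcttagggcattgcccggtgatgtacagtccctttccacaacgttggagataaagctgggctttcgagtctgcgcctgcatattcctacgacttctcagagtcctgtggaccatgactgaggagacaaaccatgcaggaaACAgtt
Snora24 in Snhg8, chr3:123507937-123508066, - strand: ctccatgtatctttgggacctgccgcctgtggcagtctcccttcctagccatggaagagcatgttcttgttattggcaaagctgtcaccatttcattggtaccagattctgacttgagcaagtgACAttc
Snora16a in Snhg12, chr4:132309464-132309600, + strand: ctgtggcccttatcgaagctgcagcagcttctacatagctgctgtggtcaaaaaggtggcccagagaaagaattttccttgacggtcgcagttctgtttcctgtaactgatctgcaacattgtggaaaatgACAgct

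The map of the host genes and their snoRNAs shows how they are built and what lies beside them. Gas5 lies on chromosome 1 at 161034422 to 161038539 and Snhg6 on the same chromosome at 9941959 to 9944118. Snhg12 (132308623 to 132311024) and Snhg3 (132348014 to 132353686) lie near each other on chromosome 4. Snhg8 lies on chromosome 3 at 123507552 to 123508404, Snhg5 on chromosome 9 at 88521050 to 88522929 and Snhg1 on chromosome 19 at 8723475 to 8726443. GENCODE M21 annotates all 7 as noncoding, Snhg6 and Snhg12 as lincRNA and the other genes as processed transcripts. Each of the 27 snoRNAs was intronic in at least 1 annotated transcript of its host. The exon bars hold every snoRNA of Gas5, Snhg1, Snhg5, Snhg8 and Snhg12 and part of Snora73a in Snhg3, because other transcripts of these genes keep the introns.

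**Figure D1:**
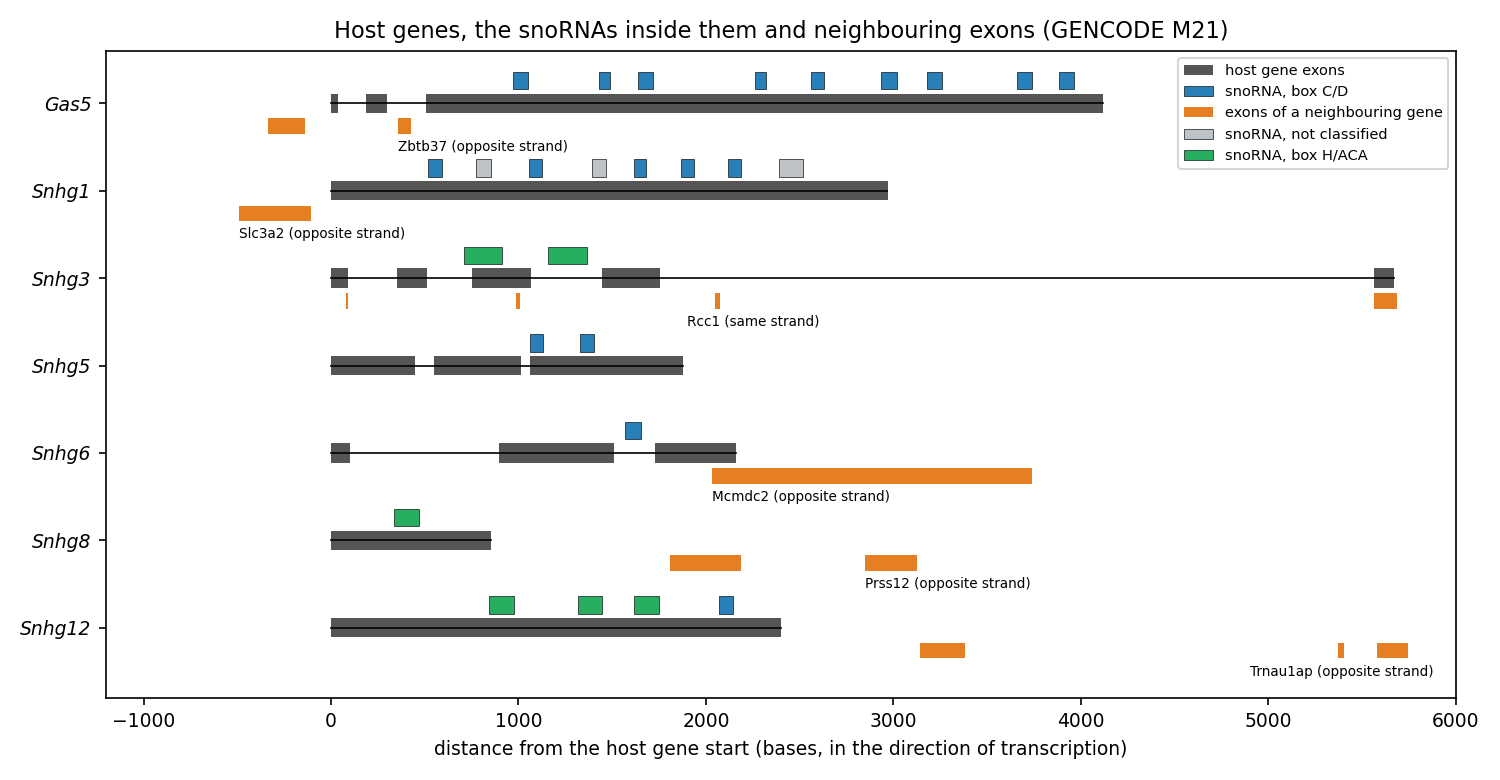
Host genes in GENCODE M21 drawn from their start in the direction of transcription (distance in bases). Grey bars are the union of exons over all transcripts, coloured boxes above are snoRNAs by class and orange bars below are exons of the neighbouring genes that come into the window. Gas5 holds 9 box C/D snoRNAs, Snhg3 holds 2 of the box H/ACA class, and exons of Rcc1 fall on exons of Snhg3.

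The sequences around the starts are shown because the host genes moved in different directions. RefSeq on GRCm38.p6 gave promoter windows of 250 bases before to 50 after the start for 6 of the 7 genes, with a pair of starts for Gas5, of which the one with matches is shown. Each line gives 50 bases before and 25 bases from the start on. Capitals mark TATAA or TATAT between 45 and 20 bases before the start and a C followed by at least 4 bases that are each C or T, its first base within 10 bases of the start. Both were searched only on the strand printed, which reads in the direction of the RNA, and were chosen after the sequences were seen.
Gas5, chr1:161035116-161035190, + strand: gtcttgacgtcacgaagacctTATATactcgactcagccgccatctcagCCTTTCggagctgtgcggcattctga
Snhg1, chr19:8723437-8723511, + strand: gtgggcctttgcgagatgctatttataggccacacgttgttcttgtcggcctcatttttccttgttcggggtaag
Snhg3, chr4:132353662-132353736, - strand: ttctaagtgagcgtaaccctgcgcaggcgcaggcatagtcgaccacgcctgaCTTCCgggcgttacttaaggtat
Snhg5, chr9:88522873-88522947, - strand: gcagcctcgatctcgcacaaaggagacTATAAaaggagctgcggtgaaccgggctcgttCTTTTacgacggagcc
Snhg8, chr3:123508312-123508386, - strand: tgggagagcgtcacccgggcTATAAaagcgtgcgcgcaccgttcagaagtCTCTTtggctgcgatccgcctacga
Snhg12, chr4:132308628-132308702, + strand: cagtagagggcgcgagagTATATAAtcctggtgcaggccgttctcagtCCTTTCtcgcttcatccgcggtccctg
The pyrimidine run was found in 5 of the 7 windows of the host genes (all but Snhg1 and the other Gas5 start) and in 30.7% of the 32851 windows in the table. Counted from the annotated start, it began at -1 and 0 in Gas5, 0 in Snhg8, -2 and -1 in Snhg12, 2 in Snhg3 and 9 in Snhg5. Snhg1 has a run of T and C bases soon after its start that begins with T and does not meet the search. The TATA letters were found in 4 of the 7 windows (Gas5, Snhg5, Snhg8 and Snhg12) and in 5.26% of all windows. CACGTG, the E-box bound by MYC, and TTCNNNGAA, the letters of a STAT site, both of which read the same on either strand, were in 0 of the 7 windows and in 7.15% and 8.30% of all windows. The pyrimidine run and the TATA letters were present in host genes that rose (Gas5 and Snhg5), in one that fell (Snhg8) and in one that did not pass the test (Snhg12).

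The GM-CSF libraries held 16643228 to 21468929 reads in genes and the control libraries 20782467 to 25232956. Cish, a feedback inhibitor of cytokine signalling chosen as a check of the labels, stood at 2046 ± 250.3 CPM (read counts divided by the reads in genes and put on the usual per-million scale) in GM-CSF libraries and 1.46 ± 0.739 CPM in control libraries (SD, n = 3 each). In log2 CPM across genes, the correlation of GM-CSF replicate 3 was 0.980 with replicate 1 and 0.983 with replicate 2, and that of replicates 1 and 2 was 0.990. All 9 monocyte markers were detected. Their sum was 27867 to 30323 CPM in GM-CSF libraries and 59954 to 68953 CPM in control libraries, with 1 marker higher and 6 lower. Lyz2 made up most of this sum (21394 CPM in GM-CSF libraries, 56025 CPM in control libraries). Cd14 was the marker that rose (log2 fold change 4.43), and Csf1r (0.19) and Itgam (-0.14) did not pass the test. The 11 neutrophil and precursor markers, of which S100a8 and S100a9 are also made by monocytes, summed to 16399 to 20490 CPM in GM-CSF libraries and 28068 to 38584 CPM in control libraries, with 1 higher and 6 lower. The 5 B cell markers were all detected and summed to 33.5 to 41.6 CPM in GM-CSF libraries and 59.0 to 69.3 CPM in control libraries. Of 7 erythroid markers 3 were detected, with Hba-a1, Hba-a2, Hbb-bs and Hbb-bt at 0, and they summed to 0.326 to 0.834 CPM in GM-CSF libraries and 2.07 to 2.29 CPM in control libraries. The 5 dendritic cell markers summed to 163 to 207 CPM in GM-CSF libraries and 40.2 to 67.8 CPM in control libraries, with 2 higher and 2 lower. Most of that sum was Cd209a (173 CPM in GM-CSF libraries, 39.9 CPM in control libraries), and Flt3 (log2 fold change -1.57) and Siglech (-1.77) fell. The groups overlapped for markers of T and NK cells (168 to 194 CPM with GM-CSF, 176 to 233 CPM in controls), basophils and mast cells (14.4 to 26.6 CPM with GM-CSF, 6.25 to 15.4 CPM in controls) and megakaryocytes (1.86 to 2.92 CPM with GM-CSF, 1.5 to 24.0 CPM in controls). Nearly all of the T and NK cell sum was Nkg7 (181 CPM in GM-CSF libraries, 194 CPM in control libraries). Cd3d, the only other marker of that list tested, averaged 0.552 CPM in GM-CSF libraries and 0.646 CPM in control libraries. Of 4 tested basophil and mast cell markers, 0 fell, and Gata2 (10.7 CPM with GM-CSF, 0.487 CPM in controls) and Ms4a2 (1.93 and 0.929 CPM) rose. Of 4 tested megakaryocyte markers, 0 rose and 2 fell. Their sum was 24.0 CPM in control replicate 3 alone. Control replicates 1 and 2, at 1.5 and 1.59 CPM, lay below every GM-CSF library. For every list without overlap the exact two-sided permutation p was 0.1, the smallest that 3 against 3 libraries allow. The part of other cells in the results on the host genes was not tested, and in such bulk samples fewer cells of a type and less RNA per cell cannot be told apart.

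Of the 7 host genes, all of which passed the filter on low counts, 4 rose with GM-CSF (Snhg1, Snhg5, Snhg6 and Gas5), 1 fell (Snhg8) and 2 did not pass the test (Snhg3 and Snhg12). The test was edgeR's two-sided quasi-likelihood test with Benjamini-Hochberg adjustment over all 11731 genes tested and a threshold of 0.05. The 5 that passed were 71.4% of the host genes, against 64.0% of all genes tested, of which 32.8% were higher and 31.2% lower. The same 5 host genes (71.4%) had no overlap between the groups, against 69.5% of all genes tested. These shares are near the background and are no result about the host genes. Without 1 library, 2 to 4 of the 7 were higher (2 without GM-CSF replicate 1, control replicate 2 or control replicate 3) and 0 were lower in each of the 6 fits. Their median log2 fold change was 0.24, against 0.01 for all genes tested.

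**Figure D2:**
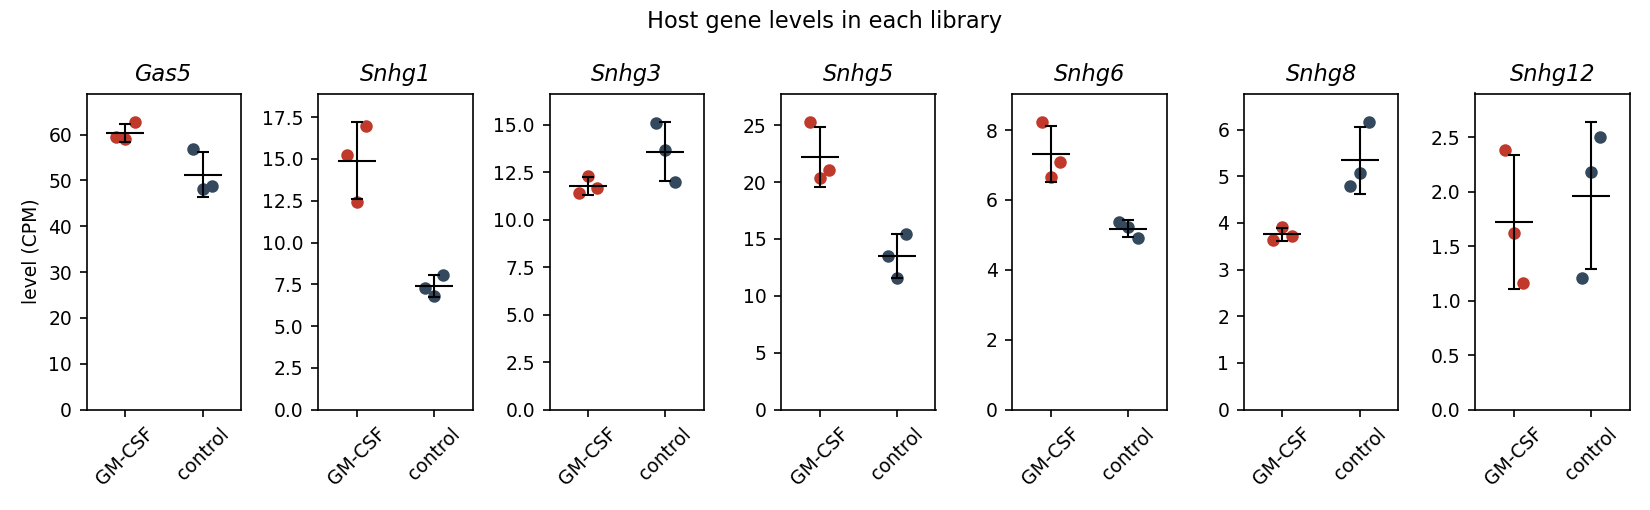
Level of each host gene (CPM, from 0) in 3 GM-CSF libraries (red) and 3 control libraries (blue-grey). Points are libraries, and bars are the mean and SD. GM-CSF and control points are apart for Gas5, Snhg1, Snhg5, Snhg6 and Snhg8, and mix for Snhg3 and Snhg12.

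Snhg1, the host of 8 snoRNAs and the one with the greatest fold change of the 7, was at 15.3, 12.4 and 17.0 CPM in GM-CSF libraries 1 to 3 and at 7.25, 6.78 and 8.08 CPM in control libraries 1 to 3. Each GM-CSF library lay well above each control library. The rise was 2.04-fold (log2 fold change 1.03 ± 0.16, SE; edgeR adjusted p = 1.88e-04) and rested on 828 and 513 reads. In size it exceeded 75.5% of the absolute log2 fold changes of all genes tested. The call held in all 15 alternative settings, at log2 fold changes of 0.91 to 1.15.

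Snhg5, which carries the paired snoRNAs Snord50a and Snord50b, was at 25.3, 20.4 and 21.1 CPM in GM-CSF libraries and at 13.5, 11.6 and 15.4 CPM in control libraries. The groups did not overlap, and control replicate 3 was the nearest to them. The gene rose 1.66-fold (log2 fold change 0.73 ± 0.15; adjusted p = 1.14e-03, edgeR), and the call held in all 15 alternatives (0.61 to 0.82).

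Snhg6, the host of Snord87, was at 8.22, 6.67 and 7.08 CPM in GM-CSF libraries and at 5.38, 5.23 and 4.91 CPM in control libraries. Controls lay close together and below every GM-CSF library. It rose 1.42-fold (log2 fold change 0.51 ± 0.17; adjusted p = 0.0235, edgeR). The call ended with upper quartile scaling (0.39) and without GM-CSF replicate 1 (0.41), control replicate 2 (0.51) or control replicate 3 (0.46), with adjusted p between 0.0216 and 0.0936 over the alternatives.

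Gas5 was the most abundant host gene by reads and moved little. It stood at 59.5, 58.9 and 62.7 CPM in GM-CSF libraries and at 56.9, 48.2 and 48.7 CPM in control libraries, where replicate 1 came within a few CPM of the GM-CSF libraries. The rise was 1.18-fold (log2 fold change 0.24 ± 0.09; adjusted p = 0.0436, edgeR), smaller than that of most genes tested, since 24.8% had a smaller absolute change. It was lost in 8 of 15 alternatives, among them 5 of the 6 fits that left out a library (0.19 to 0.33 over the 6; only leaving out control replicate 1 kept it) and upper quartile scaling (0.13).

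Snhg8, the host of Snora24, was the only one of the 7 to fall. It was at 3.64, 3.91 and 3.73 CPM in GM-CSF libraries and at 4.79, 5.07 and 6.16 CPM in control libraries. All GM-CSF libraries lay below all controls, and control replicate 3 was the highest. The fold was 0.708 (log2 fold change -0.50 ± 0.19; adjusted p = 0.0409, edgeR) on 206 GM-CSF and 371 control reads. Although the value stayed between -0.62 and -0.40, the call was lost in 10 of 15 alternatives, including each of the 6 fits without a library, with adjusted p between 0.0160 and 0.151.

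Snhg3, the host of Snora73a and Snora73b, was at 11.4, 12.3 and 11.7 CPM in GM-CSF libraries and at 15.1, 13.7 and 12 CPM in control libraries. Control replicate 3 fell among the GM-CSF values. The log2 fold change was -0.20 ± 0.14 (adjusted p = 0.228, edgeR), and no difference was shown.

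Snhg12, with 92 GM-CSF and 136 control reads the least abundant of the 7, was at 2.38, 1.62 and 1.16 CPM in GM-CSF libraries and at 1.21, 2.18 and 2.5 CPM in control libraries. Both groups spread over the same range, and no difference was shown (log2 fold change -0.19 ± 0.37; adjusted p = 0.679, edgeR). Its sign turned without GM-CSF replicate 3 (0.055) or control replicate 3 (0.0075).

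**Figure D3:**
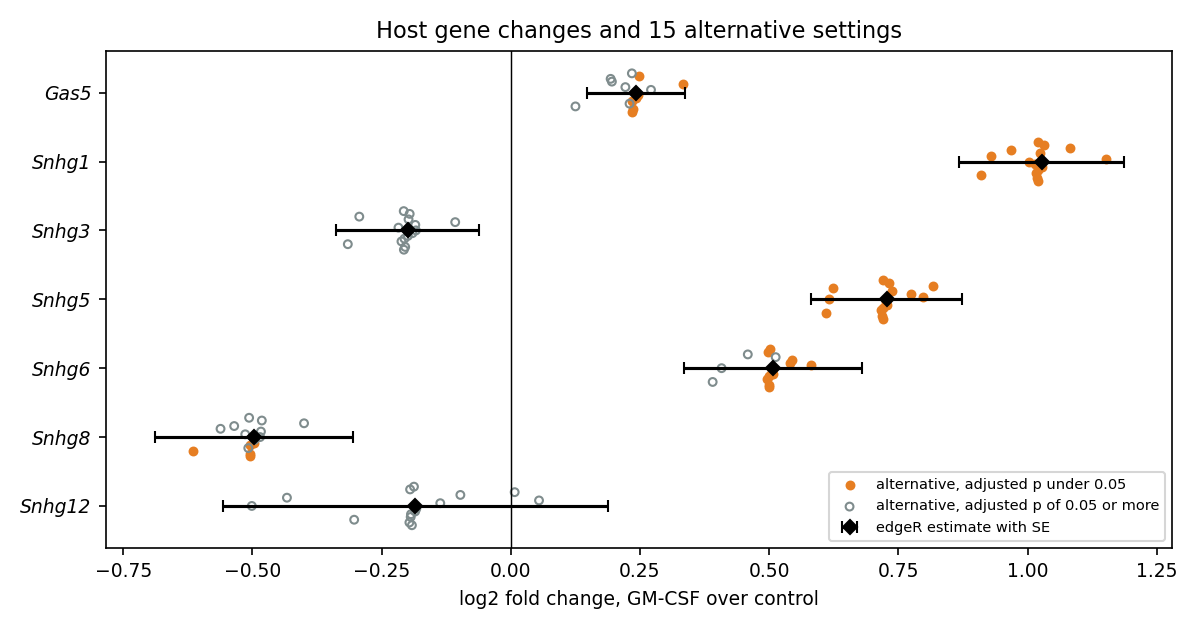
Log2 fold change of each host gene, GM-CSF over control, with the edgeR estimate and its SE (black) and 15 alternative settings (filled orange with an adjusted p under 0.05, open grey otherwise). Snhg1 and Snhg5 are filled throughout, Gas5, Snhg6 and Snhg8 are mixed, and Snhg3 and Snhg12 are open throughout.

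Upper quartile scaling lowered the median log2 fold change of all genes by 0.117, and the values of the host genes moved with it. Reads of one host gene per 100 reads of Gas5 in the same library need no scaling between libraries, and 8 such ratios between host genes, most with Gas5 in common, were compared after the data had been seen. Snhg1 had 25.7, 21.1 and 27.1 reads per 100 Gas5 reads in GM-CSF libraries and 12.7, 14.1 and 16.6 in control libraries. Snhg5 had 42.5, 34.6 and 33.6 in GM-CSF libraries and 23.8, 24.0 and 31.7 in control libraries. Both stood higher relative to Gas5 in every GM-CSF library than in any control library. Snhg3 went the other way, with 19.1, 20.9 and 18.6 reads per 100 Gas5 reads in GM-CSF libraries and 26.5, 28.4 and 24.6 in control libraries. Snhg8 had 6.11, 6.63 and 5.94 in GM-CSF libraries and 8.42, 10.5 and 12.6 in control libraries, again without overlap. Snhg1 reads per 100 Snhg3 reads averaged 127 ± 23.1 in GM-CSF libraries and 55.0 ± 10.8 in control libraries (SD, n = 3 each), and this ratio was higher in 3 of 3 GM-CSF libraries. Each of the 7 ratios without overlap had an exact two-sided permutation p of 0.1, the smallest possible, and 0.114 adjusted over the 8, while Snhg12 relative to Gas5 overlapped (p = 0.4).

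**Figure D4:**
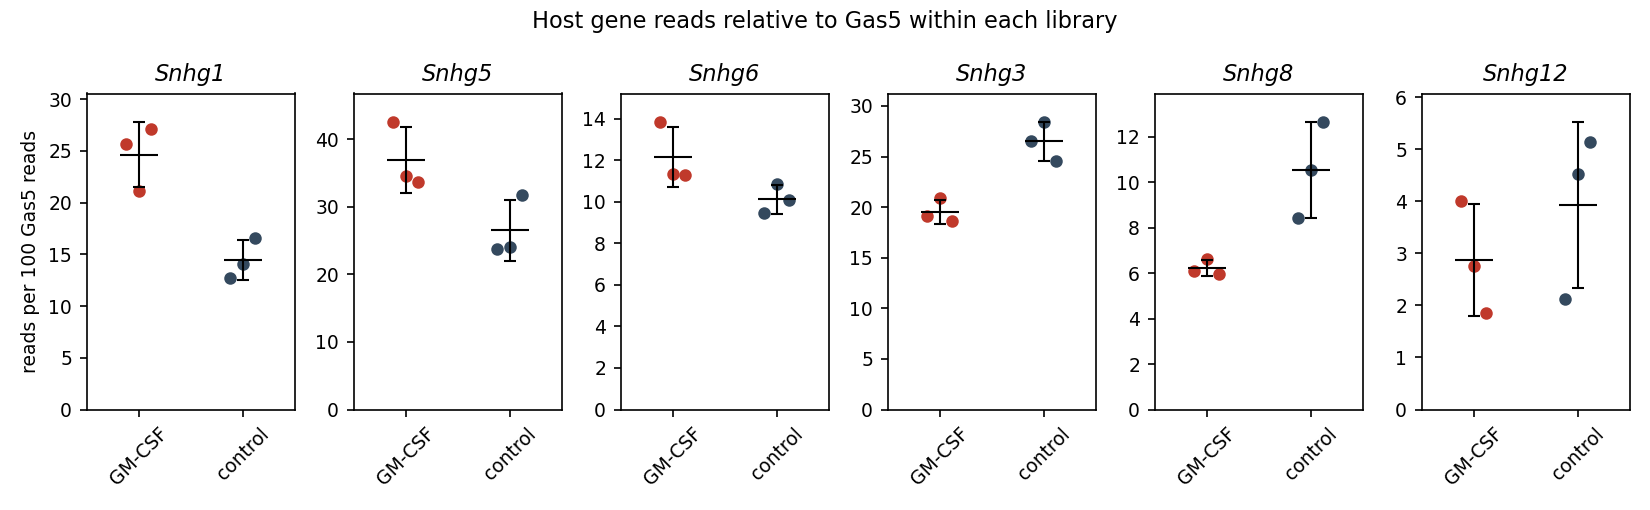
Reads of 6 host genes per 100 Gas5 reads (axes from 0) in 3 GM-CSF libraries (red) and 3 control libraries (blue-grey), with mean and SD. Snhg1, Snhg5 and Snhg6 lie higher and Snhg3 and Snhg8 lower in GM-CSF libraries without overlap, and Snhg12 overlaps.

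The make-up of the host gene RNA differed between the groups with these changes. Snhg1 gave 12.1%, 10.7% and 13.7% of the reads of the 7 host genes in GM-CSF libraries and 6.96%, 7.31% and 8.26% in control libraries. Gas5 gave 47.3%, 50.7% and 50.4% in GM-CSF libraries and 54.6%, 52.0% and 49.8% in control libraries, with overlap. The sum over the 7 was 122 ± 5.09 CPM in GM-CSF libraries and 98.2 ± 5.74 CPM in control libraries (SD, n = 3 each).

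Levels of different host genes were compared per length, as RPKM (reads per kilobase of the union of exons, from CPM). In GM-CSF libraries Gas5 was highest (16.1 ± 0.540 RPKM), followed by Snhg5 (12.8 ± 1.53) and Snhg3 (12 ± 0.483), whose values overlapped, then Snhg6 (6.39 ± 0.703), Snhg1 (5.02 ± 0.776) and Snhg8 (4.40 ± 0.161), of which Snhg1 and Snhg8 overlapped, and last Snhg12 (0.718 ± 0.256) (SD, n = 3). In control libraries Snhg3 (13.8 ± 1.58 RPKM) and Gas5 (13.6 ± 1.30) did not differ beyond their spread, and below them came Snhg5 (7.82 ± 1.12) and Snhg8 (6.26 ± 0.846), which overlapped, Snhg6 (4.51 ± 0.209), Snhg1 (2.48 ± 0.223) and Snhg12 (0.817 ± 0.280). Snhg12 was thus the lowest in both groups, and Snhg8 stood below Snhg6 in GM-CSF libraries and above it in control libraries. The union counts introns that some transcripts keep, and with the length of the longest transcript Snhg3 (20.3 RPKM) stood above Snhg5 (18.2 RPKM) in GM-CSF libraries. By that length Snhg8 (6.88 ± 0.930 RPKM) and Snhg6 (6.34 ± 0.294 RPKM) overlapped in control libraries.

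The snoRNAs themselves had few reads. Poly(A) RNA was sequenced, mature snoRNAs carry no poly(A) tail, and most of them lie within annotated exons of the host, and the part of either in the low counts was not tested. The table held rows for 8 of the 27 snoRNAs inside these host genes, 0 of which passed the filter, and they summed to 9, 10 and 1 reads in GM-CSF libraries and 4, 6 and 9 reads in control libraries. The values above are therefore those of the host RNAs, and snoRNA amounts were not measured.

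Of 11 neighbouring genes, 7 were tested, and 4 of these rose while 3 did not pass the test. Of all genes tested, 64.0% were called, with 32.8% higher and 31.2% lower. No result about the neighbours as a group is drawn from 7 genes. Slc3a2, the heavy chain of amino acid transporters at the cell surface, starts 106 bases from the start of Snhg1 on the opposite strand. It rose by 1.81 ± 0.10 on the log2 scale, to 268 ± 28 CPM in GM-CSF libraries against 77.0 ± 5.67 CPM in control libraries (SD, n = 3 each; edgeR adjusted p = 5.60e-08). Wdr74, a ribosome biogenesis gene on the other side of Snhg1, rose by 1.36 ± 0.10 (adjusted p = 5.36e-07, edgeR). Here the host and both neighbours rose.

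Rcc1, the nucleotide exchange factor of the GTPase Ran, overlaps Snhg3 on the same strand. It rose to 177 ± 13.7 CPM in GM-CSF libraries, against 87.5 ± 9.61 CPM in control libraries (SD, n = 3 each; log2 fold change 1.02 ± 0.09; edgeR adjusted p = 2.85e-06), while Snhg3 did not pass the test. Exons of Rcc1 cover 135 bases, or 13.7%, of the Snhg3 exon bases, and reads there may be left out or given to either gene, so the Snhg3 level is uncertain. Syncrip, an RNA-binding protein gene 38476 bases from Snhg5, rose by 1.56 ± 0.09 (adjusted p = 9.09e-08, edgeR), and Zfp949, the nearest gene on the other side, was at -0.13 ± 0.16 (adjusted p = 0.494, edgeR).

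Zbtb37 overlaps Gas5 on the opposite strand with 0 exon bases in common and was at 0.15 ± 0.26 (adjusted p = 0.626, edgeR). Trnau1ap, a selenocysteine tRNA-associated gene beside Snhg12, was at 0.06 ± 0.08 (adjusted p = 0.529, edgeR). Rab42 on the other side of Snhg12, Prss12 and Ndst3 beside Snhg8, and Mcmdc2, whose exons cover 11.1% of the Snhg6 exon bases on the opposite strand, did not pass the filter. Mcmdc2 had 16 reads in the GM-CSF libraries together and 16 in the control libraries together. No source used here says whether counting used strand, so reads of opposite-strand partners may be mixed.

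The remaining noncoding snoRNA hosts also went both ways. Of 17 listed, 11 were tested, 4 rose and 3 fell (median log2 fold change 0.52), which is 63.6% called against 64.0% of all genes tested, near the background. Snhg15, listed in the table under its older symbol Gm11974, rose by 2.62 ± 0.13 on the log2 scale, to 32.6 CPM in GM-CSF libraries against 5.34 CPM in control libraries (edgeR adjusted p = 3.43e-08), a larger change than in any of the 7. Snhg17 (1.15 ± 0.16), Snhg16 (as 1810032O08Rik, 1.14 ± 0.19) and Snhg7 (0.67 ± 0.25) rose too. The Snhg7 call ended in 9 of 15 alternatives, among them upper quartile scaling (0.56), no filter, DESeq2 and the fits without GM-CSF replicate 1, GM-CSF replicate 3 or any one control replicate (0.54 to 0.73). Snhg20 (-0.97 ± 0.19), Zfas1 (as 1500012F01Rik, -0.61 ± 0.16) and Snhg10 (-1.52 ± 0.46) fell, and Snhg10 had an average of 0.357 CPM in GM-CSF libraries and 1.01 CPM in control libraries. Without control replicate 1 the Snhg10 call ended (-1.37). Snhg16 and Zfas1 were named after their values were seen. Snhg4 (0.67 ± 0.34) and Snhg9 (0.36 ± 0.45) did not pass the test (adjusted p = 0.111 and 0.499, edgeR).

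Among the 7, the hosts with box C/D snoRNAs and no box H/ACA match (Gas5, Snhg1, Snhg5 and Snhg6) were the 4 that rose, and of those with box H/ACA snoRNAs 1 fell and 2 did not pass. Among the other tested hosts, 4 held a box H/ACA snoRNA, of which Snhg15 rose and Dancr (0.36 ± 0.33, adjusted p = 0.362, edgeR), Epb41l4aos (0.52 ± 0.27, adjusted p = 0.113, edgeR) and Snhg9 did not pass. Zfas1, with 2 of the box C/D class, fell, and Snhg17, with 3 that were not classified, rose. The lookup by gene symbol and snoRNA gene type returned no snoRNA for Snhg7 and Snhg16, which rose, Snhg10 and Snhg20, which fell, or Snhg4, which did not pass. These hosts were therefore not classified, and they may hold snoRNAs of either class. Dancr and Epb41l4aos were named after their values were seen. The grouping was noticed in these values and is a description of 7 genes. It rests on calls that ended in 8 (Gas5), 4 (Snhg6) and 10 (Snhg8) of 15 alternatives.

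Protein-coding snoRNA hosts other than cytosolic ribosomal protein and translation factor genes mostly rose. This list holds several ribosome biogenesis genes, among them Nop56, Nop58, Dkc1 and Gnl3. Of 22 tested, 19 rose and 0 fell by edgeR's test (median 0.83, with 86.4% called against 64.0% of all genes tested). The 3 that did not pass were Cnot1 (0.10), Tnpo2 (0.29) and Chd8 (-0.01), named after their values were seen. The number that rose was 15 with upper quartile scaling and 16 to 21 without 1 library. The calls of Ddx39b and Prrc2a ended in 7 of 15 alternatives each, that of Ipo7 in 4 and that of Cwf19l1 in 1. These 4 were likewise named after their values were seen. The count of lower genes was also 0 at an unadjusted p under 0.05, by limma-voom and by DESeq2. Gnl3, a nucleolar GTPase gene, rose by 2.91 ± 0.12 (92.2 CPM in GM-CSF libraries, 12.4 CPM in control libraries), Nop58 by 2.16 ± 0.13, and the abundant chaperone gene Hspa8 by 0.91 ± 0.12. Of 25 tested hosts among ribosomal protein and translation factor genes, 9 rose, 2 fell and 14 did not pass (median 0.14; 44% called). Rpl12 rose by 1.56 ± 0.24 and the helicase gene Eif4a1 by 1.33 ± 0.10. The elongation factor gene Eef2, highest in level, was at -0.18 ± 0.08 (adjusted p = 0.0655, edgeR). Eif4a2 (-0.53 ± 0.10) and Rps20 (-0.20 ± 0.08), named after their values were seen, fell. The Rps20 call ended with no filter (-0.22), DESeq2 (-0.21) and 5 of the 6 fits without a library (-0.24 to -0.16 in those 5; only leaving out GM-CSF replicate 3 kept it). Ribosomal protein genes have many near-identical pseudogene copies, and their counts, Rpl12 among them, are uncertain.

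Most genes for the proteins that bind snoRNAs rose. Of 8 snoRNP protein genes tested, 7 rose and 0 fell by edgeR's test (median 1.28; 87.5% called), with 0 lower also at an unadjusted p under 0.05, by limma-voom and by DESeq2, and Nop10 (0.03 ± 0.09, adjusted p = 0.804, edgeR) did not pass. Among the 7 that rose were Nop58 and Nop56 (1.47 ± 0.08), core proteins of box C/D particles. Gar1 (2.11 ± 0.13), a core protein of box H/ACA particles, was another. Nop58, Nop56 and Dkc1 are also snoRNA hosts and count in both lists. Of 12 assembly factor genes, 9 rose, 1 fell and 2 did not pass (median 0.73, with 83.3% called). The share called over all genes tested was 64.0%. Nolc1, which escorts snoRNPs in the nucleolus, rose by 1.97 ± 0.09, Znhit3 by 1.54 ± 0.11 and Tcof1 by 0.50 ± 0.07, and Pih1d1 fell by 0.37 on the log2 scale (SE 0.09, named after its value was seen).

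**Figure D5:**
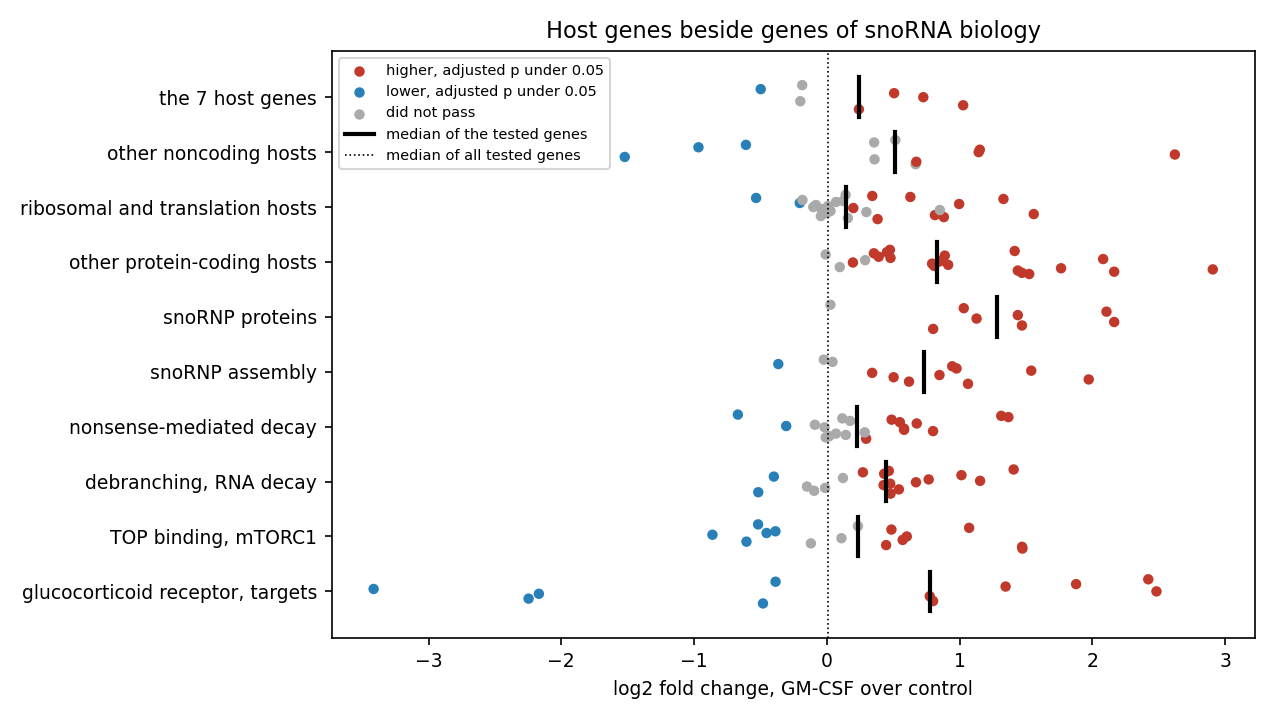
Log2 fold change, GM-CSF over control, of every tested gene in the host genes and 9 gene lists (red higher, blue lower, grey not past the test), with each list's median as a black bar and the median of all tested genes dotted. The 7 host genes lie on both sides of 0 with a median of 0.24, and the snoRNP proteins have a median of 1.28.

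Decay and translation control genes were mixed. Of 20 nonsense-mediated decay genes, 9 rose, 2 fell and 9 did not pass (median 0.23; 55% called, against 64.0% of all genes tested). The release factor genes Etf1 (1.37 ± 0.11) and Gspt1 (1.31 ± 0.11) and the exon junction gene Eif4a3 (0.68 ± 0.07) rose, Upf1 rose by 0.30 ± 0.08, and Pnrc2 (-0.67 ± 0.07) and Dhx34 (-0.31 ± 0.10) fell. The Dhx34 call ended without GM-CSF replicate 1 (-0.24), GM-CSF replicate 2 (-0.31), control replicate 2 (-0.25) or control replicate 3 (-0.31), and that of Upf1 with upper quartile scaling (0.18). Upf1, Pnrc2 and Dhx34 were named after their values were seen. Of 18 genes of intron debranching, decapping and exonuclease decay, 12 rose and 2 fell (median 0.45; 77.8% called), with Dis3 (1.41 ± 0.12) and Exosc2 (1.15 ± 0.09) of the RNA exosome among those that rose, the debranching enzyme gene Dbr1 at 0.48 ± 0.10 and Xrn1 (-0.52 ± 0.15) and Exosc5 (-0.40 ± 0.09) lower. Xrn2 was the highest in level and did not pass (-0.10 ± 0.09, adjusted p = 0.367, edgeR). Dbr1, Xrn1 and Exosc5 were likewise named after their values were seen.

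Of 15 genes for TOP mRNA binding and mTORC1, 7 rose and 5 fell (median 0.23, with 80% called against 64.0% of all genes tested). Larp1, which binds TOP sequences, was at 92.5, 100.3 and 220.5 CPM in GM-CSF libraries and at 50.3, 48.8 and 50.8 CPM in control libraries. GM-CSF replicate 3 stood far above the other libraries. The log2 fold change was 1.47 ± 0.27, and 0.96 without that library (adjusted p = 3.68e-07, edgeR). Larp4 rose by 1.47 ± 0.07 and the mTORC1 activator gene Rheb by 1.07 ± 0.10. The 5 that fell were Mlst8 (-0.61), Eif4ebp1 (-0.86), Eif4ebp2 (-0.45), Tia1 (-0.39) and Tsc2 (-0.52), named after their values were seen. Of 11 glucocorticoid receptor and target genes tested, 6 rose and 5 fell (median 0.78; 100% called). Klf9 (2.48 ± 0.13) and Dusp1 (1.35 ± 0.17) rose and Zbtb16 (-3.41 ± 0.52) fell. Zbtb16 was low, with 12, 9 and 1 reads in GM-CSF libraries (mean 0.434 CPM) and a mean of 4.45 CPM in control libraries. The receptor gene Nr3c1 itself (-0.48 ± 0.08) and Tsc22d3 (-2.25 ± 0.11) fell too, both named after their values were seen.

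The genes whose pattern over the 6 libraries lay nearest to that of Gas5, by Euclidean distance between mean-centred log2 CPM values among 9790 genes, were Ier3ip1 (distance 0.090), Acer3 (0.104) and Cyb5a (0.108), with log2 fold changes of 0.20, 0.19 and 0.25. For Snhg12 they were Trpm4 (0.514), Trim32 (0.595) and Zfp938 (0.617), at larger distances. The distances rank closeness in these libraries only.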

How the data were processed

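Poly(A) RNA was sequenced from 3 GM-CSF and 3 control libraries as paired reads, per the labels' protocols. The authors deposited whole-number read counts per gene symbol. Per the submitters' processing notes the build was mm10 and the tools were STAR 2.5.2a, HTSeq 0.6.1p1, Trim Galore 0.4.4 and edgeR. Their roles, the gene annotation and any strand setting were not given in the sources used here. Rows that name no gene stayed out of library sizes and tests (no feature 7.82% to 9.72%, ambiguous 1.44% to 1.53%, not unique 18.0% to 19.6% of each library). Reads that match several places are in the last class, which lowers genes with near-identical copies. A count of 0 allows up to 3 reads, or 0.119 to 0.180 CPM, for counting error only.

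The counts were tested in edgeR 4.0.16 (R 4.3.3) with TMM scaling, filterByExpr (minimum count 10, total 15), a quasi-likelihood fit on group alone and Benjamini-Hochberg adjustment. The SE was computed as the size of the log2 fold change over the square root of F. CPM uses total gene reads. Alternatives were other scalings and filters, a robust prior, a replicate block, limma-voom 3.58.1, DESeq2 1.42.0 and leaving out each library, and ratios between host genes were added after seeing the data. Positions and exon lengths came from GENCODE M21, and 4 older symbols were matched to noncoding hosts through RefSeq synonyms. The members and lists were chosen with earlier results of these data known. The genes named were all members, their neighbours, the 2 genes per list that changed most on the log2 scale in either direction, the gene of each list with the highest mean CPM, every tested Snhg row and the 3 nearest patterns.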

Additional observations from a re-analysis of the deposited data

How the results depend on the processing

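Over 15 alternatives Snhg1 and Snhg5 kept their calls, and Snhg3 was never called (-0.32 to -0.11). Gas5 lost its call with upper quartile scaling (0.13), no filter (0.23) and DESeq2 (0.23), and Snhg6 with upper quartile scaling (0.39). Snhg8 lost it with no filter (-0.51), the replicate block (-0.50), limma-voom (-0.48) and DESeq2 (-0.51). Leaving out 1 library gave log2 fold changes of 0.19 to 0.33 for Gas5, 0.41 to 0.58 for Snhg6, -0.56 to -0.40 for Snhg8 and -0.50 to 0.05 for Snhg12, which turned positive without GM-CSF replicate 3 (0.055) or control replicate 3 (0.0075). The number of host genes higher was 2 with upper quartile scaling and 2 to 4 without 1 library (2 without GM-CSF replicate 1, control replicate 2 or control replicate 3). The number lower was 0 with no filter, the replicate block, limma-voom and DESeq2 and in each fit without 1 library. Among hosts for ribosomal proteins and translation factors, 5 were lower with upper quartile scaling, 1 with no filter and 1 to 2 without 1 library. Of nonsense-mediated decay genes, 1 to 2 were lower without 1 library. Of the other rows named Snhg, 1 was higher with upper quartile scaling, no filter, the block or DESeq2 and 1 to 2 without 1 library, and 1 was lower with a filter at 1 CPM and 1 to 2 without 1 library. The cause was not tested. Same-numbered GM-CSF and control libraries correlated at 0.0727, 0.00984 and 0.0038 in their deviations, and libraries with different numbers at -0.0469 to 0.0304. Such values cannot show whether same-numbered libraries share an origin, which the labels do not give. With the block 3848 genes were higher and 3645 lower, against 3851 and 3660. GM-CSF replicate 1 correlated best with control replicate 1 (0.0727), replicate 2 with control replicate 3 (0.0251) and replicate 3 with control replicate 2 (0.0304). Snhg12 rested on 25 to 55 reads in a library and Snhg8 on 61 to 128.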
